A study of Brassica rapa subsp. pekinensis with 6 samples.

Results

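The 4 genes described here are named as copies of *APETALA3* (*AP3*) and *PISTILLATA* (*PI*) in Chinese cabbage. These are *Bra007067* and *Bra014822* for *AP3*, and *Bra020093* and *Bra002285* for *PI*. They were chosen by identifier and name, with earlier results of these data known, and all 4 were among the 35616 genes to which any library assigned a read. The names come with the identifiers, because the deposited lists pair no gene names with them, and neither a sequence nor a position of these genes was used here. Whether the genome holds further copies of *AP3* or *PI* was not checked, so sums and ratios below cover these 4 genes only. RNA of mixed flower buds collected in full bloom was compared between 3 libraries of the mutant *fsm* (M1, M2, and M3) and 3 libraries of the wild type ‘FT’ (F1, F2, and F4). ‘FT’ is a Chinese cabbage line made homozygous by doubling of haploids, and *fsm* is a female-sterile line obtained from it by ethyl methanesulfonate treatment of isolated microspores. The mutant is thus 1 line, and mutations other than the causal one are confounded with it. Each replicate mixed the buds of several plants, and the methods also speak of pooling RNA of the replicates before library construction, so that the p-values below measure the spread between libraries, which may be technical.

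In *Arabidopsis thaliana*, *AP3* and *PI* are the class B genes of floral organ identity. Both encode MADS-domain transcription factors that bind DNA as a pair and keep up their own transcription once they are switched on. Together with class A genes they specify petals, and together with the class C gene *AGAMOUS* they specify stamens, whereas carpels form where *AGAMOUS* acts without them. Loss of *AP3* or *PI* turns petals into sepal-like organs and stamens into carpel-like organs. *Brassica rapa* carries several copies of many such genes because its ancestor multiplied its genome.

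The deposited counts summed to 28118248 to 29366538 reads assigned to genes in the *fsm* libraries and 24990396 to 25402146 in the ‘FT’ libraries. In the study's read statistics, the share of clean reads mapped to the reference was lower in each ‘FT’ library than in any *fsm* library. This difference is confounded with the lines, and its part in the small differences below was not tested. Across genes, which are not independent replicates, Pearson's r of log2(CPM + 1) was 0.997 in the 6 pairs of libraries of 1 line and 0.852 to 0.855 in the 9 pairs across lines. No 2 libraries of a line were copies of each other, since a chi-square statistic per gene of 3.01 to 7.37 exceeded the value of 1 that sampling noise gives. Each of the 4 genes had at least 947 reads in each library, so counting error was small. No source names a batch of library preparation or sequencing, so that batches and lines cannot be told apart.

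Of the 4 copies, 3 rose modestly in *fsm* and the most abundant one did not pass the test. The *AP3* copy *Bra014822* and the *PI* copy *Bra020093* were 37.4% and 37.8% higher in *fsm* than in ‘FT’, and the *PI* copy *Bra002285* was 27.1% higher. Their 95% intervals were 24.7% to 51.4%, 25.7% to 51.1%, and 14.2% to 41.4%. These sizes depend on how the libraries are scaled. Scaled by library totals alone, the log2 fold changes in edgeR were 0.39, 0.39, and 0.27, against 0.46, 0.46, and 0.35 in the main fit. The *AP3* copy *Bra007067* was 5.94% higher, with a 95% interval from -2.61% to 15.2%. In whole mixed buds, fewer or more cells of a type and less or more RNA per cell cannot be told apart. A gene passed the test when its p-value from the quasi-likelihood test of edgeR, adjusted by the Benjamini-Hochberg method over all 35616 genes, did not exceed 0.001. By this rule 30.6% of all genes were higher in *fsm* and 29.1% were lower, so that 3 of 4 genes with a rise stand against a background in which 59.7% of genes passed in either direction. Among the 5401 genes whose mean read number lay in the range of the 4 copies (1188 to 7138 reads), 42.9% were higher and 36.8% were lower, and 45.4% passed with an absolute log2 fold change below 1, as the 3 copies did. An absolute log2 fold change of 1 was reached by 0 of the 4 copies, whereas 36.7% of all genes passed the test with such a change (18.7% higher in *fsm* and 18.0% lower). With a limit of 4, 5.26% of all genes and none of the 4 copies passed.

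*Bra007067* was the most abundant of the 4 copies. It had 8261, 7451, and 7189 reads in M1, M2, and M3, against 6473, 6590, and 6863 reads in libraries F1, F2, and F4. Its RPKM, the reads per kilobase of coding length, scaled to the reads of the library, was 402, 374, and 366 in *fsm*, against 365, 376, and 393 in ‘FT’. The 2 lines overlapped in RPKM, with M1 the highest of the 6 libraries and F1 the lowest. After TMM normalization, which corrects the library totals for differences in RNA composition, the counts were 7334 ± 427 in *fsm* and 6923 ± 283 in ‘FT’ (mean ± SD, n = 3 each), and 1 of the 3 *fsm* libraries lay above every ‘FT’ library. The log2 fold change was 0.08, with a standard error of 0.06 and an adjusted p-value of 0.21 in edgeR. It did not pass the threshold under any of the 14 alternatives, where it lay between 0.01 and 0.15. Its 95% interval reached from -0.04 to 0.20 on the log2 scale, so that a small rise lies within it. Among the genes with read numbers in the same range, 6.46% had an absolute log2 fold change as small as this or smaller.

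The other *AP3* copy, *Bra014822*, had fewer reads and rose in *fsm*. It had 2579, 2663, and 2644 reads in M1, M2, and M3, against 1608, 1751, and 1933 reads in libraries F1, F2, and F4. Its RPKM was 130, 138, and 139 in *fsm*, against 93.8, 103, and 115 in ‘FT’. The lines did not overlap, which also holds for 37.5% of all genes in this direction and for 37.5% in the other when normalized counts are compared. The *fsm* libraries lay close together, with a coefficient of variation of 3.13% in normalized counts, whereas the ‘FT’ libraries spread by 10.3%, with F1 lowest and F4 highest. The log2 fold change was 0.46 (standard error 0.07, 95% interval 0.32 to 0.60, adjusted p = 1.3e-07, edgeR). It passed the threshold in 13 of 14 alternatives, and the exception was limma on log2(RPKM + 1), which gave 0.39 with an adjusted p-value of 0.0011.

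*Bra020093* was the more abundant *PI* copy and had the largest log2 fold change of the 4 genes, although it was within 0.01 of that of *Bra014822* and thus far inside the standard error. It had 3907, 3307, and 3296 reads in M1, M2, and M3, against 2303, 2389, and 2337 reads in libraries F1, F2, and F4. Its RPKM was 217, 190, and 192 in *fsm*, against 148, 156, and 153 in ‘FT’. The lines did not overlap, and the lowest *fsm* library stood well above the highest ‘FT’ library. Here the ‘FT’ libraries were the tighter group, with a coefficient of variation of 2.26% in normalized counts, which is near the 2.07% that counting error alone gives, and M1 stood above M2 and M3. The log2 fold change of 0.46 (95% interval 0.33 to 0.60, standard error 0.07, adjusted p = 3.4e-08, edgeR) passed the threshold in all 14 alternatives, with values from 0.38 to 0.50. A difference of this size or larger, in either direction, was found in 63.4% of the genes with read numbers in the same range.

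The other *PI* copy, *Bra002285*, had the fewest reads and the least certain rise. It had 1507, 1239, and 1385 reads in M1, M2, and M3, against 947, 963, and 1086 reads in libraries F1, F2, and F4. Its RPKM was 116, 98.6, and 112 in *fsm*, against 84.5, 87.1, and 98.5 in ‘FT’. The lines did not overlap, but the lowest *fsm* library, M2, and the highest ‘FT’ library, F4, were nearly equal in RPKM. The log2 fold change was 0.35 (standard error 0.08, 95% interval 0.19 to 0.50, adjusted p = 8.7e-05, edgeR). The direction was the same in all 14 alternatives, and 7 of them passed the threshold. Without F1, F2, M1, or M3 the adjusted p-values were 0.0074, 0.0054, 0.0050, and 0.0069 in edgeR, and with the library totals in place of TMM it was 0.0014. The log2 fold changes without 1 library lay between 0.28 and 0.42.

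**Figure D1:**
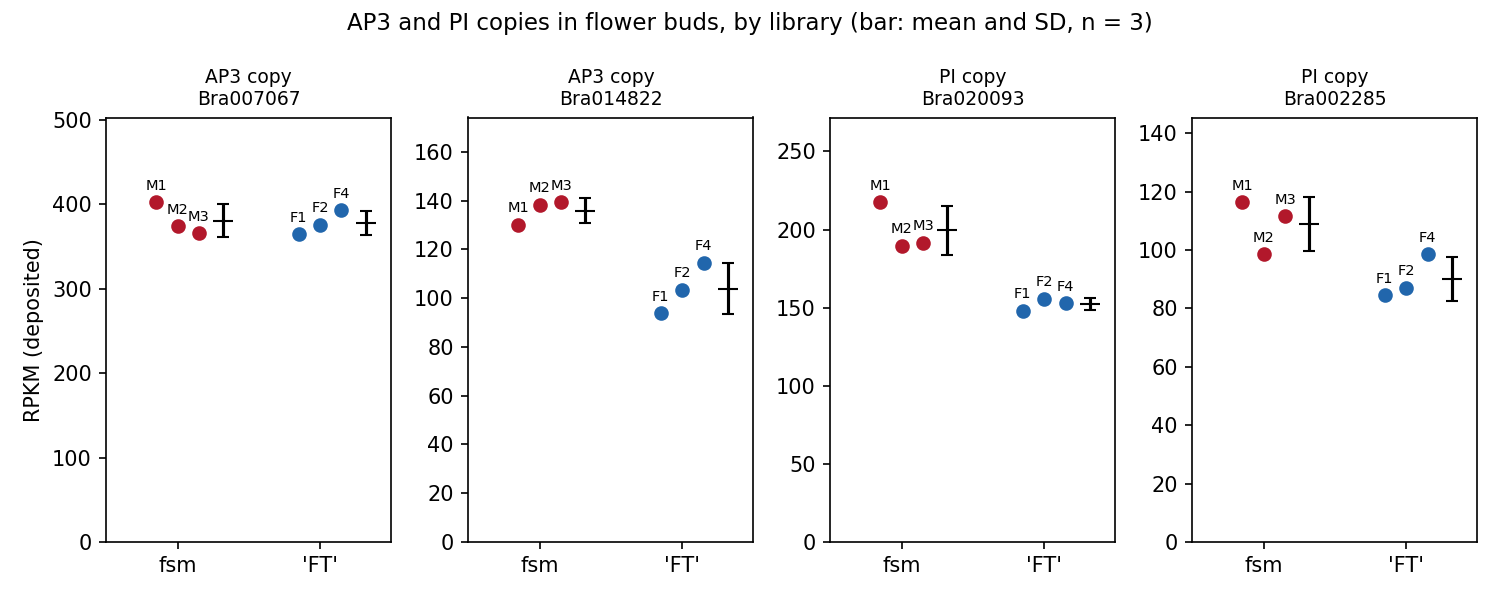
Deposited RPKM (vertical axes, from 0, a scale for each gene) of the 4 copies in each *fsm* library (red, left) and each ‘FT’ library (blue, right), with the mean and SD of 3 libraries in black. The *fsm* libraries lie above the ‘FT’ libraries for *Bra014822*, *Bra020093*, and *Bra002285*, and the lines overlap for *Bra007067* (366 to 402 in *fsm*, 365 to 393 in ‘FT’).

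Seen against the whole transcriptome, all 4 copies were abundant and little changed. Their median log2 fold change was 0.40, whereas it was -0.02 over all genes tested and 0.09 over the genes with read numbers in the range of the 4. Rises and falls cancel in such medians, so they do not compare the size of change. In absolute log2 fold change, 63.4% of the genes in that range changed at least as much as *Bra020093*, the copy with the largest value. In *fsm*, the mean RPKM placed *Bra007067* at the 99.3rd percentile of the 34211 genes with reads, *Bra020093* at the 98.0th, *Bra014822* at the 96.4th, and *Bra002285* at the 95.04th. In ‘FT’ the percentiles were 99.3, 96.8, 94.9, and 93.9 in the same order of genes. The order of the 4 levels was thus the same in both lines. In *fsm*, no neighbours in this order overlapped between libraries, and in ‘FT’ only the last 2 did, with 93.8 to 115 RPKM for *Bra014822* and 84.5 to 98.5 RPKM for *Bra002285*. Within each of the 6 libraries, however, *Bra014822* was the higher of the 2.

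**Figure D2:**
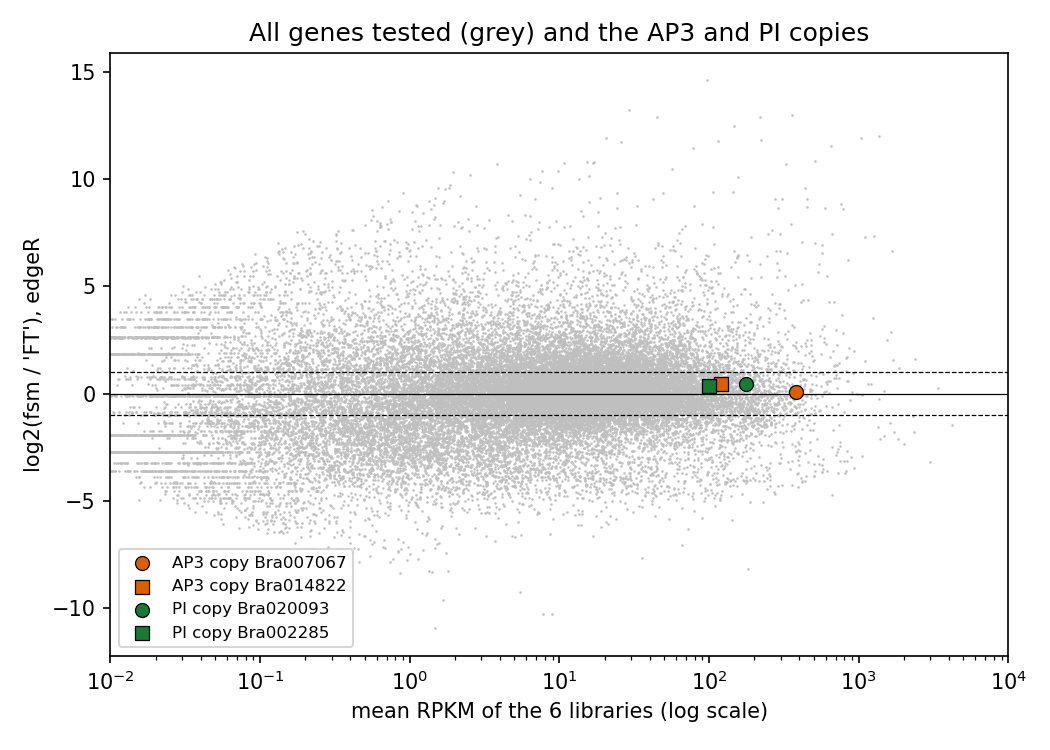
Log2 fold change of *fsm* over ‘FT’ in edgeR (vertical axis) against the mean RPKM of the 6 libraries (horizontal axis, log scale) for 35616 genes in grey, with the *AP3* copies in orange and the *PI* copies in green. Dashed lines mark a log2 fold change of 1 and of -1, and all 4 copies lie between them, from 0.08 to 0.46, at the abundant end.

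The copies of a pair were compared within each library, because such a ratio does not depend on how libraries are scaled. The 2 *AP3* copies had unequal levels, with *Bra007067* at 3.09, 2.70, and 2.63 times the RPKM of *Bra014822* in M1, M2, and M3, against 3.89, 3.63, and 3.43 times in F1, F2, and F4. Every *fsm* library thus had a lower ratio than any ‘FT’ library. The lower ratio restates the unequal fold changes of the 2 copies and is not a further finding. For single genes, lack of overlap held for 37.5% in each direction in normalized counts, and no such share was computed for ratios. As a share of the summed RPKM of the pair, *Bra007067* held 73.7% ± 1.68 in *fsm* and 78.5% ± 1.06 in ‘FT’ (SD, n = 3 each). On the log2 scale the ratio differed by -0.38 (1.49 ± 0.13 in *fsm*, 1.87 ± 0.09 in ‘FT’; two-sided exact permutation test, p = 0.1, adjusted p = 0.15 over 3 ratios). The value of 0.1 is the smallest p that 3 libraries against 3 allow, so the design could not reach 0.05.

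The ratio of the 2 *PI* copies did not separate the lines. *Bra020093* had 1.87, 1.92, and 1.71 times the RPKM of *Bra002285* in M1, M2, and M3, against 1.75, 1.79, and 1.55 times in F1, F2, and F4. The lines overlapped, with M3 below F1 and F2. The log2 ratio was 0.87 ± 0.09 in *fsm* and 0.76 ± 0.11 in ‘FT’ (SD, n = 3 each), a difference of 0.11 (two-sided exact permutation test, p = 0.3, adjusted p = 0.3). This does not show that the balance was equal in the lines.

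The AP3 and PI proteins act as a pair in *Arabidopsis thaliana*, so the summed RPKM of the *AP3* copies was also set against that of the *PI* copies. The *AP3* sum was 517 ± 14.2 in *fsm* and 482 ± 24.7 in ‘FT’ (SD, n = 3 each), and the lines overlapped, with 505 to 533 in *fsm* and 458 to 507 in ‘FT’. The *PI* sum was 308 ± 23.2 in *fsm* and 242 ± 9.34 in ‘FT’ (SD, n = 3 each), without overlap. The *AP3* sum was therefore 1.60, 1.78, and 1.67 times the *PI* sum in M1, M2, and M3, against 1.97, 1.97, and 2.02 times in F1, F2, and F4. Each *fsm* library had the lower ratio, and on the log2 scale the difference was -0.24 (0.75 ± 0.08 in *fsm*, 0.99 ± 0.02 in ‘FT’), with p = 0.1 and an adjusted p of 0.15 in the same exact test. In normalized counts, 37.5% of all genes were higher in *fsm* without overlap and 37.5% were lower. No such share was computed for sums or ratios. The directions of the 3 ratios were the same when raw counts were used, when 1 RPKM was added to each gene, and without each library in turn.

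**Figure D3:**
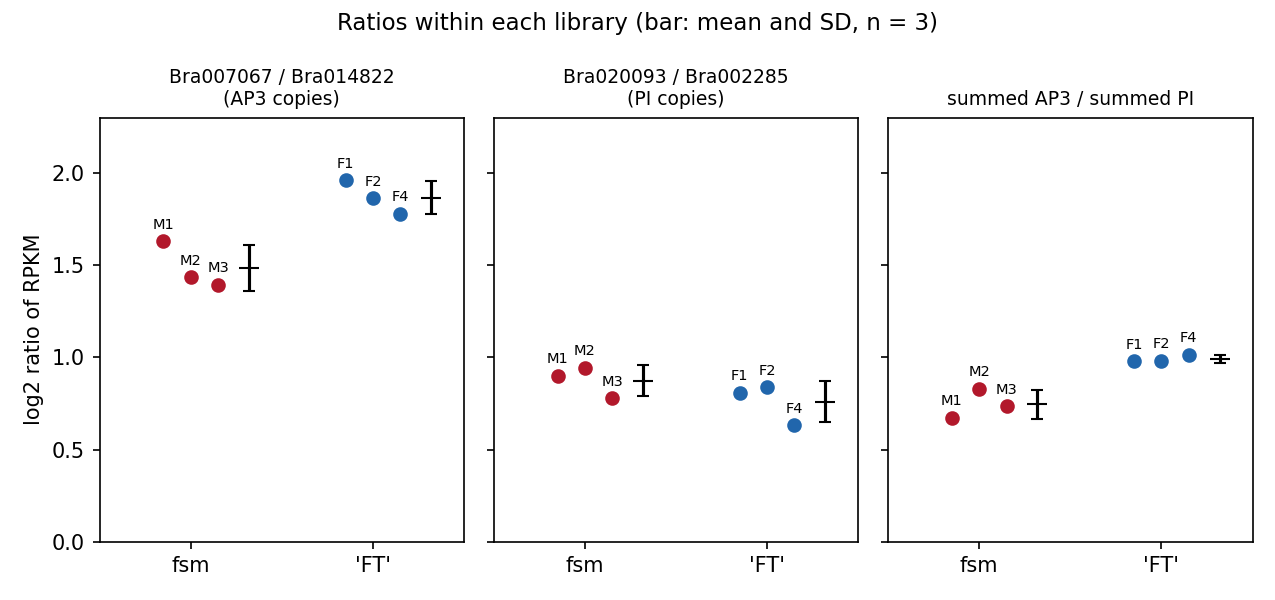
Log2 ratio of RPKM within each library (vertical axis) between the *AP3* copies, between the *PI* copies, and between the summed *AP3* and summed *PI* copies, for *fsm* (red, left) and ‘FT’ (blue, right), with the mean and SD of 3 libraries in black. The lines do not overlap for the *AP3* copies (1.39 to 1.63 in *fsm*, 1.78 to 1.96 in ‘FT’) and for *AP3* over *PI* (0.67 to 0.83 in *fsm*, 0.98 to 1.01 in ‘FT’), and they overlap for the *PI* copies.

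The share of a gene's bases covered by reads, a deposited percentage, did not separate the lines in 3 of the 4 copies. The share of all genes whose coverage separates the lines was not computed, so this count has no background to be read against. The percentage is not exact to the base, since it exceeded 100% for 4 genes each in F1 and F4, and for 1, 2, and 1 genes in M1, M2, and M3. Differences of a few bases are therefore uncertain. *Bra020093* was covered at 99.84% in each of the 6 libraries, which by this percentage leaves 1 of its 612 bases without a read. *Bra014822* lacked reads on 1 to 4 of its 675 bases in *fsm* and on 1 base in each ‘FT’ library. *Bra007067* lacked reads on 4, 5, and 5 of its 699 bases in M1, M2, and M3, against 1 base in each ‘FT’ library (exact permutation test of the percentage, two-sided, p = 0.1, again the lowest possible, adjusted p = 0.3 over 3 genes).

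*Bra002285* stood apart in its gene model and its coverage. Its coding length of 441 bases corresponds to 147 codons, against 204 in *Bra020093*, 225 in *Bra014822*, and 233 in *Bra007067*. It was covered at 95.01%, 95.92%, and 95.01% in M1, M2, and M3, against 95.24% in each ‘FT’ library, so that 18 to 22 bases had no read in any given library. Of 2251 other genes within a factor of 2 of it in read number and length, 12.0% had a lower mean coverage. The RPKM of this copy depends on the length of its gene model, and its ratio to the other *PI* copy depends on it as well, but the difference between the lines does not. The counts are named as unique reads, but their sums exceed the totals of uniquely matched and of all mapped reads that the study lists for the same libraries. How reads that match both copies of a pair were counted is thus unknown, and the levels and ratios of the copies carry this uncertainty.

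The spread between libraries of a line was larger in number than counting error in each of the 4 copies. For *Bra020093* in ‘FT’ the excess was slight (2.26% against 2.07%), and 3 libraries cannot tell it from counting error. In *fsm* the coefficients of variation of the normalized counts were 5.82% for *Bra007067*, 3.13% for *Bra014822*, 8.41% for *Bra020093*, and 8.54% for *Bra002285*, and the median of the 5401 genes with similar read numbers was 5.42%. In ‘FT’ they were 4.08%, 10.3%, 2.26%, and 8.70% in the same order of genes, and the median was 4.12%. The *AP3* copy *Bra014822* in ‘FT’ and the *PI* copy *Bra002285* in ‘FT’ lay above the 90th percentile of these genes, 8.23%. In both of them, and in *Bra007067*, F4 was the highest ‘FT’ library, whereas M1 was the highest *fsm* library for *Bra007067* and both *PI* copies.

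The genes most like each copy were found by the root mean square difference of log2(RPKM + 1) over the 6 libraries, which reads both level and pattern. For *Bra007067* they were *Bra002483* and *Bra032519*, with differences of 0.08 and 0.08. For *Bra014822* they were *Bra038642* and *Bra033355*, with 0.05 and 0.06. For *Bra020093* they were *Bra001052* and *Bra027498*, with 0.05 and 0.07, and for *Bra002285* they were *Bra029797* and *Bra000397*, with 0.07 and 0.08. These neighbours carry no name in the sources used here. Few other genes came as near, since only 3, 12, 5, and 9 genes lay within 0.1 of *Bra007067*, *Bra014822*, *Bra020093*, and *Bra002285*.

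The *AP3* copy *Bra007067* was also set beside other transcription factors. The study's table of detected genes, of which the 1116 genes with the most reads in F1 were used here, lists 10 other genes with the term nucleic acid binding transcription factor activity. In edgeR, 3 of these rose, 4 fell, and 3 did not pass the test, and their median log2 fold change was -0.08. Choice by the reads of 1 ‘FT’ library favours genes that are high in ‘FT’, since 68.0% of the 1116 genes fell and 17.6% rose, and it leaves out factors that are abundant only in *fsm*. No rank or direction is therefore drawn from the list. *Bra007067* had 381 ± 19.2 RPKM in *fsm* and 378 ± 14.3 in ‘FT’ (SD, n = 3 each). The 2 genes of the list with the highest mean RPKM were *Bra027101*, with 96.9 ± 3.97 in *fsm* and 662 ± 25.5 in ‘FT’ (log2 fold change -2.70, standard error 0.06), and *Bra024406*, with 330 ± 7.62 in *fsm* and 392 ± 12.0 in ‘FT’ (log2 fold change -0.18, standard error 0.06, adjusted p = 0.0070, edgeR). In ‘FT’, *Bra024406* and *Bra007067* did not differ beyond their spread. Of 6 genes that the study lists by identifier under the terms flower development and floral organ development, which are some of its genes on this subject, 4 rose and 2 fell, with log2 fold changes from -4.65 to 6.22. The 2 most abundant were *Bra001005*, with 60.5 ± 2.20 RPKM in *fsm* and 0.845 ± 0.128 in ‘FT’, and *Bra000979*, with 12.1 ± 0.27 in *fsm* and 0.380 ± 0.149 in ‘FT’ (SD, n = 3 each). The study chose these 6 genes on these samples, so that they are not independent evidence of a direction.

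Pollen develops in the anthers of the stamens, and genes of pollen were available here only as lists whose choice favours a fall. The study describes smaller floral organs in *fsm*, with small amounts of pollen that was viable. It also obtained seed when ‘FT’ was pollinated by *fsm*. All 12 genes whose description in the study's list of changed genes holds the word pollen fell in *fsm*, which is not independent evidence because that list was made from these samples with a high threshold of change. Their summed RPKM was 98.4 to 110 in *fsm*, against 2447 to 2542 in ‘FT’, and none of them was at 0 in either line. The most abundant were the pollen-specific polygalacturonase *Bra010872*, with 27.9 ± 2.60 RPKM in *fsm* and 480 ± 34.5 in ‘FT’, and the pollen Ole e 1 allergen family gene *Bra010850*, with 22.5 ± 0.32 in *fsm* and 380 ± 8.17 in ‘FT’ (SD, n = 3 each). The 22 genes of the terms pollen wall assembly or pollen exine formation among the 1116 genes with the most reads in F1 also all fell, against 68.0% of those 1116 genes. Genes of these terms that are abundant only in *fsm* could not enter. The median log2 fold change of the 22 genes was -2.14, and their summed RPKM was 1794 to 1932 in *fsm*, against 6878 to 7103 in ‘FT’. The 2 most abundant of these were *Bra000559*, with 197 ± 11.2 RPKM in *fsm* and 1580 ± 101 in ‘FT’, and *Bra002116*, with 262 ± 9.99 in *fsm* and 588 ± 43.0 in ‘FT’. The part of the pollen transcripts in the levels of the *AP3* and *PI* copies was not tested.

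**Figure D4:**
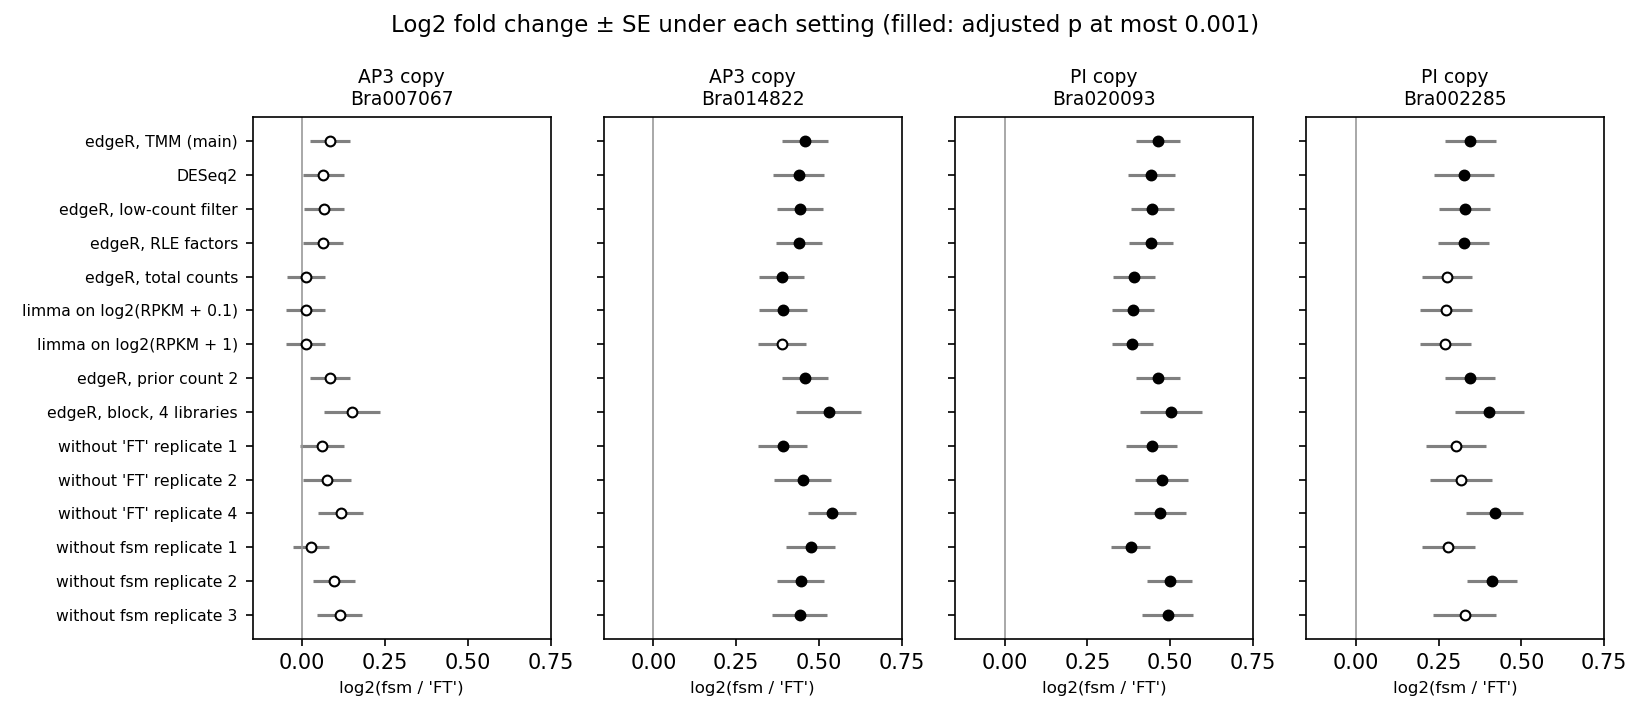
Log2 fold change of *fsm* over ‘FT’ with its standard error (horizontal axes) for the 4 copies under the main setting and 14 alternatives (rows). Filled points passed an adjusted p-value of 0.001, as all 15 did for *Bra020093*, 14 for *Bra014822*, 8 for *Bra002285*, and 0 for *Bra007067*, and every point lies above 0.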

How the data were processed

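RNA-Seq libraries of flower buds of *fsm* and ‘FT’ were analysed, 3 for each line. After quality filtering, the authors aligned reads to version 1.5 of the Chinese cabbage reference genome with SOAPaligner/SOAP2. Their deposited lists give, per gene, a count of reads under a heading that calls them unique (their sums exceed the study's totals of mapped reads), the coding length, the percentage covered, and the RPKM, which the authors normalized to the sum of the counts. The submitters' processing notes name DESeq. Genes without reads are not listed and were taken as 0 reads, and 3 reads correspond to 0.102 to 0.120 CPM, a floor for counting error only.

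Tests on counts used edgeR 4.0.16 under R 4.3.3, with TMM normalization and the quasi-likelihood test, over all 6 libraries, without covariates or a filter on low counts. The standard error was taken as the absolute log2 fold change divided by the square root of F. Ratios and coverage were compared by exact permutation tests in SciPy 1.17.1. Alternatives used RLE size factors, library totals, DESeq2 1.42.0, edgeR's filter on low counts, a prior count of 2, limma 3.58.1 on log2 RPKM with a pseudocount of 1 or 0.1, a replicate block, and each library left out in turn.

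The named genes are the 4 copies, the 2 genes nearest to each, and the 2 most abundant of each list. The list of other floral MADS-box genes is not reported here, because the reference table belongs to another assembly and pairs no such gene with the identifiers of the files. The genes and lists were chosen with earlier results of these data known.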

Additional observations from a re-analysis of the deposited data

How the results depend on the processing

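Of the 56 alternative values of the 4 log2 fold changes, 48 kept the direction and the side of the threshold, and the other 8 kept the direction only. These were *Bra014822* under limma on log2(RPKM + 1) (0.39), and *Bra002285* under library totals (0.27), limma on log2(RPKM + 0.1) (0.27), limma on log2(RPKM + 1) (0.27), and without F1, F2, M1, or M3. Without 1 library, *Bra002285* ranged from 0.28 to 0.42, *Bra014822* from 0.39 to 0.54, *Bra020093* from 0.38 to 0.50, and *Bra007067* from 0.03 to 0.12. Library totals in place of TMM moved the median of the genes with similar read numbers by -0.07, and no setting moved it by as much as 0.1. With a log2 fold change past 1, 6657 genes were higher and 6412 lower in *fsm*. Without a fold threshold the numbers were 10895 and 10380, and with 4 they were 1038 and 835. All values of the 3 ratios and of the RPKM levels kept their direction or stayed within 1 SD.

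The labels share only the numbers 1 and 2 between the lines, and they are not said to mark a common preparation. With the replicate block over these 4 libraries, the log2 fold changes were 0.15 for *Bra007067*, 0.53 for *Bra014822*, 0.50 for *Bra020093*, and 0.40 for *Bra002285*, and 6326 genes were higher and 5890 lower. The deviations from the line means correlated by -0.04 (M1 and F1) and 0.04 (M2 and F2) across 27550 genes. Pairs with unlike numbers ranged from -0.07 (M2 and F4) to 0.07 (M1 and F4), so the same number did not give the larger correlations.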
